A study of Mus musculus with 4 samples.

Results

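The 9 genes described here, Gata6, Gata3, Cst6, Defb6, Aqp3, Klk10, Atp6v1c2, Ly6g6c and Wnt4, are genes other than keratins that are associated with the infundibulum and isthmus, the upper part of the hair follicle. They were taken by name from the platform's gene symbols, which gave 12 probe sets of the 22690 on the array, and they are 9 of the 12393 genes tested. Each gene is represented by its probe set with the highest mean log2 signal over the 4 arrays. No sort of infundibulum or isthmus cells was analysed here, so the label could not be checked against such cells.

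RNA of cells sorted from mouse back skin at postnatal day 49 was hybridised to Affymetrix arrays. All samples came from K14-GFP-actin mice, in which the keratin 14 promoter, active in basal keratinocytes, drives a fusion of GFP and actin. The total group, 2 arrays, held all living GFP-positive cells. The bulge group, 2 arrays, held living GFP-positive cells with high α6 integrin and high CD34, which selects the basal layer of the bulge. The total sort still contained the bulge cells, and no label says whether the replicates came from separate animals or pools, so the p-values reflect the spread among these arrays alone, and that spread may be technical. The series was set up to find the genes that set bulge basal cells in telogen, the resting phase of the hair cycle, apart from the epidermis as a whole.

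The infundibulum opens the follicle to the skin surface and the isthmus joins it to the bulge at the level of the sebaceous gland. Its suprabasal cells line the canal through which sebum leaves, and they make antimicrobial peptides, protease inhibitors and a cornified lining much as the interfollicular epidermis does. The bulge below it is the resting stem cell compartment of the follicle. The total group held GFP-positive cells of the whole epidermis and not of the upper follicle alone. A lower bulge signal here therefore does not place a gene in the upper follicle.

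Of the 9 genes, both bulge arrays lay below both total arrays for 6 and above them for 2, and Klk10 overlapped. Over all genes tested, 20.5% were lower and 18% higher without overlap. The 9 genes were chosen with earlier results of these data known. Their counts and median beside those of all genes therefore describe the choice as well, and support nothing about the set. Defb6, a β-defensin, lay 11.4-fold lower in the bulge group, Gata3 4.07-fold and Gata6 at least 4.01-fold lower, and Aqp3, a water and glycerol channel, 3.21-fold higher. None of the 9 passed an adjusted p of 0.05 in the limma fit without trend (0% of all genes called, smallest adjusted p 0.0729) or with an intensity trend (1.08% called), and the words lower and higher here describe the arrays and not a call. At an unadjusted p under 0.05 in the fit without trend, 3 were lower and 1 higher, where 5.29% of all genes were lower and 5.18% higher. The median difference was -1.30 on the log2 scale over the 9 genes and -0.02 over all genes tested. In bulk RNA, fewer cells of a type and less RNA per cell cannot be told apart.

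Signals are the deposited linear values, and differences are bulge minus total in log2 signal. Every SD is over the 2 arrays of a group. Every SE is the moderated one of the limma fit without trend, as are the intervals unless the trend is named. That fit draws on the variance of all genes tested, so an SE is not the spread of the gene's own arrays alone. A background level of 150.0 was set from receptor genes of smell and taste, since the file holds no detection flags. Where a gene was below it on 1 or both arrays of the group with the lower mean, its fold is a bound. It was computed with those arrays raised to the level and the arrays of the other group as deposited. By this measure 6 genes were above background on all 4 arrays, Gata6 and Cst6 on 1 of the 2 bulge arrays, and Klk10 on none.

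**Figure D1:**
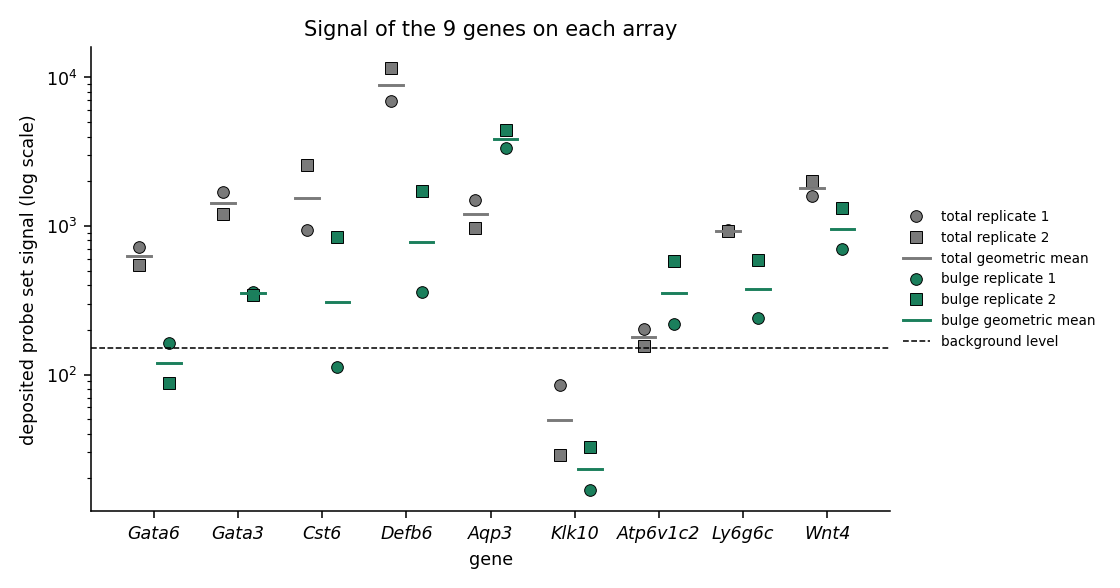
Deposited signal (log axis) of each gene on the 4 arrays, with total arrays in grey, bulge arrays in green, replicate 1 as circles and replicate 2 as squares. Short bars are geometric means of 2 arrays and the dashed line is the background level of 150.0. Levels are comparable within a gene and not between genes. Gata6, Gata3, Cst6, Defb6, Ly6g6c and Wnt4 had both green symbols below both grey ones, and Aqp3 and Atp6v1c2 had both above.

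Gata6 encodes a zinc finger transcription factor of the junctional zone and the sebaceous duct. Its signals were 721 and 542 in the total epidermis and 162 and 88.3 on the bulge arrays. The groups did not overlap, and the second bulge array lay under the background level. The mean log2 signal was 9.29 ± 0.29 (SD, n = 2) for total epidermis and 6.90 ± 0.62 (SD, n = 2) for bulge cells, a difference of -2.39 ± 0.47 (SE) with a 95% interval of -3.58 to -1.19. The adjusted p was 0.146 without trend and 0.0792 with it. The other probe set, with signals of 131, 58.8, 56.2 and 38.0, was below background on all 4 arrays.

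Gata3 encodes the related factor that acts in epidermal differentiation, in the inner root sheath and, outside the epithelium, in T cells. Its signals were 1695 and 1212 in the total epidermis and 361 and 345 on the bulge arrays. Both bulge arrays were close to each other and well apart from the total arrays, and all 4 were above background. The difference was -2.02 ± 0.39 (SE, 95% interval -3.03 to -1.02), with an adjusted p of 0.142 without trend and 0.0641 with it. When genes below background in both groups were left out before the limma fit without trend, 3.06% of 7249 genes were called, and of the 9 genes Gata3 and Gata6 (adjusted p of 0.0452 and 0.0472). Gata6 entered that fit through the total group alone, so its call supports nothing. With only the genes above background on all 4 arrays, Gata3 was not called (adjusted p of 0.0714) and Gata6 was not tested.

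Because Gata3 is also a T cell gene, T cell markers were set beside it, although the sort of both groups for K14-GFP should remove T cells. Of 9 measured T cell markers, 8 were lower without overlap and 0 higher, where 20.5% and 18% of all genes were. The median difference of -3.34 is the value of Cd3e, which was below background on both bulge arrays and is bounded at 1.59-fold lower or more. Cd3d and Cd2, also counted as lower, had means below background in both groups. Ptprc, the pan-leukocyte gene of CD45, fell at least 2.88-fold and Itgae, an integrin gene of intraepithelial T cells, at least 1.55-fold in the fit with the trend (adjusted p of 0.0300 and 0.0335). Their summed signal was 2172 and 3564 in the total epidermis and 395 and 510 on the bulge arrays. On bulge replicate 1 none of the 9 exceeded background, and on bulge replicate 2 only Thy1 did. The T cell receptor complex genes Cd3e and Cd3g were below background on both bulge arrays, with signals between 20.1 and 41.3, and Gata3 was above background on both. On the total arrays T cell markers and Gata3 were both higher, and the part of these cells in the Gata3 difference was not tested.

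The other GATA factors were dim or had overlapping groups. Gata2, a haematopoietic factor, had signals of 211 and 155 in the total epidermis and 293 and 154 on the bulge arrays, with overlapping groups and a difference of 0.23. Gata1, Gata4 and Gata5 were below background in both groups. Of these 4 genes 1 was higher without overlap and 0 were lower, the median was 0.11 and 0 passed in either limma fit.

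Cst6 encodes cystatin M/E, a secreted inhibitor of cysteine proteases that controls legumain and cathepsins in cornifying cells. Its signals were 934 and 2560.0 in the total epidermis and 113 and 842 on the bulge arrays. The groups did not overlap, but bulge replicate 2 came close to total replicate 1, while bulge replicate 1 was under the background level. The difference was -2.33 ± 1.07 (SE), bounded at 4.35-fold lower or more, and its 95% interval of -5.04 to 0.38 included 0 (adjusted p of 0.572 without trend and 0.476 with it). Against the total mean the log2 difference was -3.78 for bulge replicate 1 and -0.88 for bulge replicate 2, so the size rests on which bulge array is read.

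Of 13 measured cystatins, target proteases and transglutaminases, 4 were higher without overlap, 1 lower and 8 overlapped, with a median of 0.38 and 0 called. Only 6 of the 13 had a group mean above background. The median is the value of Cst12, which had not, nor had Cst7, the lower gene, and Tgm1, 1 of the higher. The brightest, Cst3 (cystatin C) and Cstb (cystatin B), had differences of 0.52 and -0.31 with overlapping groups. Ctsl, which encodes cathepsin L, a target of cystatin M/E, had signals of 2575 and 2074 in the total epidermis and 8064 and 7055 on the bulge arrays (difference 1.71, adjusted p of 0.185). Lgmn, which encodes legumain, another target, was above background on bulge replicate 2 alone, at 195, which bounds it at 1.03-fold higher or more. Stfa3, a stefin, had 364 and 1452 in the total epidermis and 98.1 and 436 on the bulge arrays, with overlapping groups and replicate 2 above replicate 1 in both.

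Defb6 encodes a secreted β-defensin, a small cationic antimicrobial peptide, and showed the most negative difference of the 9 genes. Its signals were 6985 and 11499.6 in the total epidermis and 359 and 1711 on the bulge arrays, all above background and without overlap. The mean log2 signal was 13.13 ± 0.51 (SD, n = 2) for total epidermis and 9.61 ± 1.59 (SD, n = 2) for bulge cells. The difference was -3.52 ± 0.82 (SE, 95% interval -5.59 to -1.44), with an adjusted p of 0.195 without trend and 0.111 with it. Against the total mean, bulge replicate 1 alone was 25.0-fold lower and bulge replicate 2 alone 5.24-fold lower. Of all genes tested, 0.339% had a lower difference.

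Of 17 other defensins and antimicrobial genes, 5 were lower without overlap, 1 higher and 11 overlapped, with a median of -0.16. Only 2 of the 17 had a group mean above background, and the median is the value of Defb11, which had not. Defb1 was the only other β-defensin above background, at 2419 and 1797 in the total epidermis and 196 and 505 on the bulge arrays. It lay 6.62-fold lower in the bulge group without passing (difference -2.73, adjusted p of 0.162 without trend and 0.0818 with it). Slpi, a secreted protease inhibitor with antimicrobial activity, had a difference of 0.25 with overlapping groups. Lcn2, an iron-siderophore binding protein gene, passed in the fit with the trend (adjusted p of 0.0479) but was below background in both groups, so no fold is given.

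Klk10 encodes a kallikrein-family serine protease. Its only probe set was below background on all 4 arrays, at 85.3 and 28.9 in the total group and 16.6 and 32.5 in the bulge group, and the groups overlapped. No fold is given. Among 7 other measured kallikreins and regulators, 1 was lower without overlap and 6 overlapped, with a median of -0.55 and 0 called. That median is the value of Klk4, which was below background in both groups. Klk11 had 603 and 363 in the total epidermis and 134 and 127 on the bulge arrays, the latter below background, which bounds it at 3.12-fold lower or more (adjusted p of 0.198). Klk7 and Klk8, desquamation proteases of the outer epidermis, differed between the bulge arrays, at 9.12 and 1058 for Klk7 and 115 and 539 for Klk8. The membrane serine protease gene St14, an activator of this cascade, had a difference of -0.06.

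Aqp3 encodes an aquaglyceroporin of the keratinocyte membrane that carries water and glycerol and is known from the basal layer. Its signals were 1498 and 966 in the total epidermis and 3369.7 and 4424 on the bulge arrays. Each bulge array lay above each total array, and the bulge arrays were closer together than the total arrays. The mean log2 signal was 10.23 ± 0.45 (SD, n = 2) for total epidermis and 11.91 ± 0.28 (SD, n = 2) for bulge cells. The difference was 1.68 ± 0.43 (SE, 95% interval 0.59 to 2.78), with an adjusted p of 0.237 without trend and 0.128 with it.

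A second Aqp3 probe set gave the same direction, with 67.5 and 46.4 on the total arrays, below background, and 296 and 309 on the bulge arrays. Its difference was 2.43 in a fit over all probe sets (adjusted p of 0.158). The remaining one was at or under 20.6 on every array. Of 6 basal keratinocyte markers on the same arrays, 2 were higher without overlap, Col17a1 (1.66-fold) and Itgb4 (1.70-fold), 0 were lower and the median was 0.06. The brightest, Krt5 and Dst, had differences of 0.05 and 0.07. Aqp9, another glycerol-conducting member, had 119 and 185 in the total epidermis and 128 and 198 on the bulge arrays. The other measured aquaporins, Aqp2 among them, were below background in both groups, and of 8 in all 1 was higher without overlap, 3 were lower and the median was -0.01.

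Atp6v1c2 encodes a tissue-restricted C subunit of the V-ATPase, the proton pump that acidifies lysosomes and other compartments. Its signals were 201 and 157 on the total arrays, just above background, and 217 and 580.1 on the bulge arrays. The groups did not overlap, but bulge replicate 1 exceeded total replicate 1 only slightly, and bulge replicate 2 was 2.67-fold above bulge replicate 1. The difference was 0.9995 ± 0.58 (SE, 95% interval -0.47 to 2.47; adjusted p of 0.694 without trend and 0.637 with it). Against the total mean the difference was 0.29 for bulge replicate 1 and 1.71 for bulge replicate 2.

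The paralogous subunit gene Atp6v1c1, which is expressed widely, had 2172 and 2746 in the total epidermis and 2488 and 2866 on the bulge arrays, with overlapping groups and a difference of 0.13. Of 21 other V-ATPase subunit and accessory genes, 4 were higher without overlap, 2 lower and 15 overlapped, with a median of 0.10 and 0 called. The brightest, Atp6ap2 and Atp6v1g1, had differences of 0.22 and -0.07.

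Ly6g6c encodes a GPI-anchored surface protein of the Ly6 family. Its signals were 938 and 922 in the total epidermis and 239 and 595 on the bulge arrays. The total arrays were nearly equal and the bulge arrays were lower and farther apart. The difference was -1.30 ± 0.55 (SE, 95% interval -2.69 to 0.08), with an adjusted p of 0.518 without trend and 0.389 with it. Against the total mean it was -1.96 for bulge replicate 1 and -0.65 for bulge replicate 2. Of 9 other measured Ly6 and uPAR genes, 4 were lower without overlap, 0 higher and 5 overlapped, with a median of -0.40 and 0 called. That median is the value of Ly6f, which was below background in both groups. The brightest was Ly6d, a Ly6 gene of stratified epithelium, at 10115 and 12998 in the total epidermis and 480.1 and 3577 on the bulge arrays (difference -3.13, adjusted p of 0.329). Lypd3, another GPI-anchored family gene, was lower by a difference of -1.21 without passing.

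Wnt4 encodes a secreted Wnt ligand made by keratinocytes. Its signals were 1594 and 2022 in the total epidermis and 696 and 1312 on the bulge arrays, without overlap. Bulge replicate 2 lay closer to the total arrays than bulge replicate 1 did. The difference was -0.91 ± 0.47 (SE, 95% interval -2.11 to 0.29; adjusted p of 0.638 without trend and 0.534 with it). Against the total mean, bulge replicate 1 alone was 2.58-fold lower and bulge replicate 2 alone 1.37-fold lower. Of the 18 other Wnt ligands, 10 were lower without overlap, 4 higher and 4 overlapped, with a median of -0.61 and 0 called.

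Of those ligands 4 had a group mean above background. Wnt10a had 1164 and 1062 in the total epidermis and 512 and 786 on the bulge arrays, and Wnt7b had 508 and 466 against 256 and 210.3. Wnt5a, a ligand of noncanonical signalling, had 318 and 228 in the total epidermis and 51.6 and 35.7 on the bulge arrays, bounded at 1.80-fold lower or more (adjusted p of 0.108 without trend and 0.0668 with it). Wnt6 had 166 and 202 against 136 and 139. These 4 ligands and Wnt4 all lay lower in the bulge group without overlap, where 20.5% of all genes did, and none passed. Wnt5a and Wnt6 were above background on the total arrays alone, so the choice of ligands favoured this direction and their count supports nothing.

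**Figure D2:**
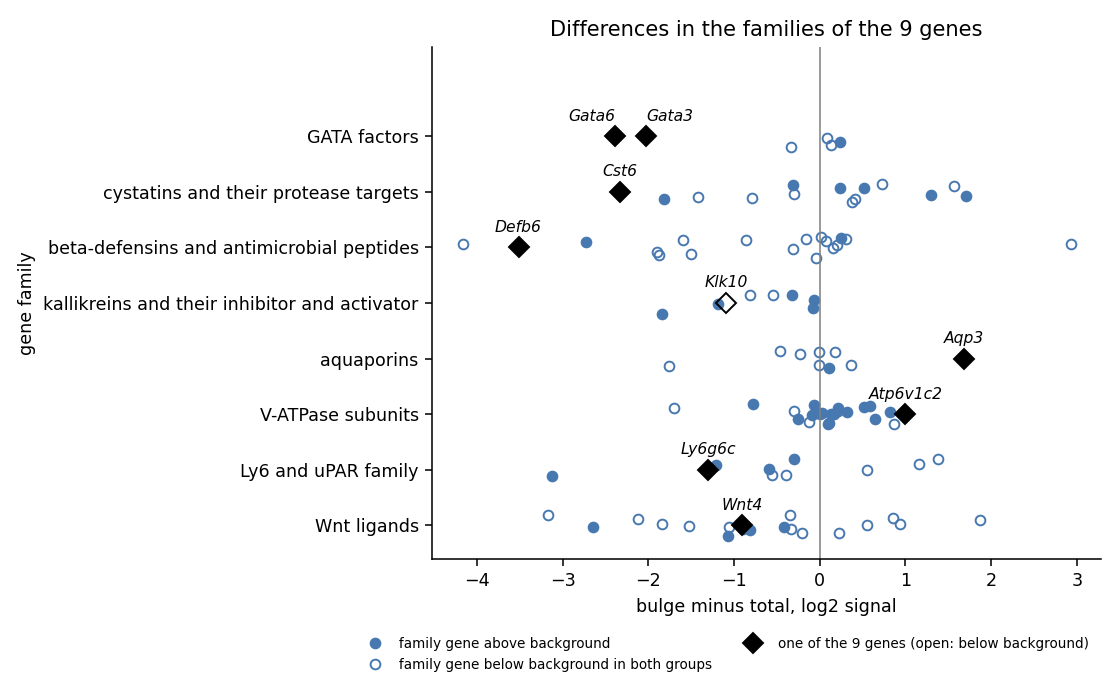
Difference between bulge and total (log2 signal, horizontal axis) for the measured genes of each family, as blue circles, and for the 9 genes, as black diamonds, with open symbols for genes below background in both groups. Defb6 lay at -3.52 and Aqp3 at 1.68, while most V-ATPase genes lay near 0.

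Promoter sequence is shown for Defb6 and Aqp3, the genes with the most negative and the most positive difference, and for Atp6v1c2, because Defb6 and Atp6v1c2 are the members whose window holds a GATA motif and 2 GATA factors are among the 9 genes. Each is the 250 bases before the annotated start, from RefSeq's GRCm38.p6, written 5′ to 3′ along the gene's strand. RefSeq windows were matched for 7 of the 9 genes, and no entry was matched for Gata6 and Cst6. Capitals mark the motifs found, GATAA in Defb6 and Atp6v1c2 and TATAAA in Aqp3.
Defb6 promoter, GRCm38.p6, chr8:19225228-19225477, plus strand: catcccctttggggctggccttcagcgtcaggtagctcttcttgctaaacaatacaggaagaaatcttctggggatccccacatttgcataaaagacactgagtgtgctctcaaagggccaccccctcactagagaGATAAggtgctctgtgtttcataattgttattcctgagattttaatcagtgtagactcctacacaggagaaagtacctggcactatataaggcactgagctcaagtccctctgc
Aqp3 promoter, GRCm38.p6, chr4:41098184-41098433, minus strand: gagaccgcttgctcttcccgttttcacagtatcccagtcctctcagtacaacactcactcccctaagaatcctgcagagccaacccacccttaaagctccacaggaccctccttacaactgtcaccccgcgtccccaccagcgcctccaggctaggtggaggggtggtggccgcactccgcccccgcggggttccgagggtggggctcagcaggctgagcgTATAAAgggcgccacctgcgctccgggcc
Atp6v1c2 promoter, GRCm38.p6, chr12:17324731-17324980, minus strand: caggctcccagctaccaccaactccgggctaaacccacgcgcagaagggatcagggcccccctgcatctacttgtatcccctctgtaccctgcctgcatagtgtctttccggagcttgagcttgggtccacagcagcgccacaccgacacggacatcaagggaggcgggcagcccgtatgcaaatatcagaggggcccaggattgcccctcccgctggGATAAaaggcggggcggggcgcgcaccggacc

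The motifs searched on both strands were GATAA, the core bound by GATA factors, TATAAA, the TATA box, and TGANTCA, the AP-1 site. GATAA began 114 bases before the start in Defb6 and 32 bases before it in Atp6v1c2, and 22.6% of 32851 RefSeq windows of the same length hold it. Of the pair with GATAA, Defb6 was lower and Atp6v1c2 higher in the bulge group. TATAAA began 29 bases before the start of Aqp3 and 30 bases before that of Ly6g6c, and 12.4% of all windows hold it. No window of the 7 held TGANTCA, against 6.75% of all windows. No matches overlapped, and a match describes letters and not binding.

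The 95% intervals of the differences excluded 0 for Defb6, Gata6, Gata3 and Aqp3 in the fit without trend, before any adjustment. They included 0 for the other 5 genes. The trend narrowed the intervals of all but Klk10, and with it that of Ly6g6c also excluded 0, from -2.49 to -0.12.

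**Figure D3:**
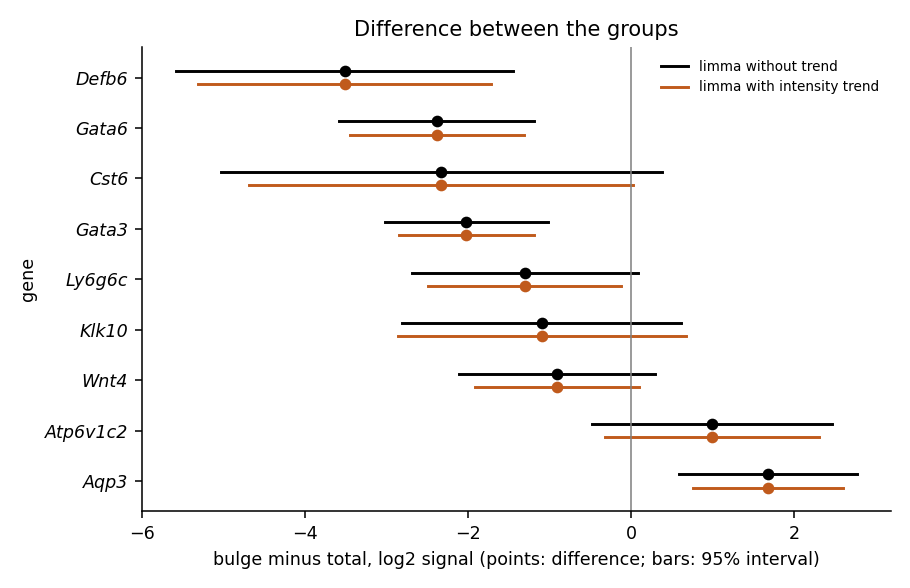
Difference between bulge and total for the 9 genes (log2 signal, horizontal axis), with points for the difference and bars for the 95% interval in the limma fit without trend, in black, and with an intensity trend, in orange. The black bars of Defb6, Gata6, Gata3 and Aqp3 lie on one side of 0.

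The bulge replicates differed from each other for several of the genes. Among the 8 genes above background in a group, bulge replicate 2 exceeded replicate 1 more than 2-fold for 4, where 13.5% of 7249 genes above background did. These were Cst6 (at least 5.61-fold), Defb6 (4.77-fold), Atp6v1c2 (2.67-fold) and Ly6g6c (2.49-fold), and Wnt4 followed at 1.89-fold and Aqp3 at 1.31-fold. Gata6 went the other way, with replicate 1 at least 1.08-fold above replicate 2, and the Gata3 arrays were within 1.05-fold. With 1 array on each side, these ratios have no test.

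As deposited, the total replicates lay closer together for 6 of the 8 genes, Aqp3 and Gata3 being the exceptions. For Gata6 this rests on a bulge signal of 88.3, below background. Its total arrays differed 1.33-fold and its bulge arrays at least 1.08-fold, so its order is not established. Replicate 2 exceeded replicate 1 more than 2-fold for 1 of the 8 genes, Cst6 (2.74-fold), against 3.01% of genes above background. It was also higher for Defb6 (1.65-fold) and Wnt4 (1.27-fold), and the other 5 genes above background had replicate 1 higher, by 1.02-fold for Ly6g6c to 1.55-fold for Aqp3. Over genes above background the SD of the replicate difference was 0.92 in the bulge group and 0.55 in the total group on the log2 scale. Cst6, Defb6 and Wnt4 had the higher signal on replicate 2 of both groups.

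Suprabasal markers were set beside the bulge replicates. Of 9 measured, 6 had a group mean above background, and all 6 were higher on bulge replicate 2 than on replicate 1, with a median log2 difference of 1.34. All 6 were also higher on total replicate 2 than on total replicate 1, with a median of 0.56. Over all genes above background these medians were -0.01 for the bulge arrays and -0.05 for the total arrays. A rise on bulge replicate 2 was not particular to suprabasal markers. Of 5 sebaceous gland markers above background 4 were higher there (median 0.79), and of 8 bulge markers 1 was. Krtdap, a gene of differentiating keratinocytes, had 1368 and 10045 on the bulge arrays, Lor, which encodes the cornified envelope protein loricrin, 5966 and 25481, and Mt4, a metallothionein of stratified epithelium, 141 and 505. The summed suprabasal signal was 55097 and 85344 in the total epidermis and 44000 and 84901 on the bulge arrays. Between the bulge arrays the log2 difference was 0.84 for Krt10, 0.03 for Dmkn and 0.68 for Krt1. Between the groups, 3 of the 9 suprabasal markers were lower without overlap, 1 higher and 5 overlapped, with a median of -0.47. Krt1, a keratin of the spinous layer, fell 9.94-fold in the fit with the trend (adjusted p of 0.0297). Among markers of the cornified layer, Ivl and Flg had group means below background, although Flg reached 163 on bulge replicate 2. Lor, given above, was above background on every array. The part of suprabasal RNA in the replicate difference of Cst6, Defb6 and Ly6g6c was not tested.

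Other markers were set beside the same arrays. Of 8 bulge markers, all were higher without overlap, and their summed signal was 27561 and 35338 in the total epidermis and 82886 and 70345 on the bulge arrays. In the fit with the trend 4 rose, namely Cd34, used in the gate (difference 3.92), Dkk3 (4.29), Lgr5 (3.29) and Lhx2 (2.82), while the brightest, Krt15 and Postn, had differences of 0.36 and 1.22 without passing. Sebaceous gland markers summed to 10470 and 10294 in the total epidermis and 8424 and 11409 on the bulge arrays, with 2 of 8 higher and 2 lower without overlap. The brightest of them, Mgst1 and Plin2, had differences of 0.46 and 0.04. Of 10 Langerhans cell and macrophage markers, 8 were lower and 1 higher without overlap, with sums of 13566 and 14536 against 4224 and 4217. Among these the antigen presentation gene H2-Aa fell 11.6-fold, H2-Ab1 at least 7.36-fold and the receptor gene Csf1r 12.5-fold in the fit with the trend, and Epcam had a difference of 0.29.

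Of 7 melanocyte markers, 6 were lower and 1 higher without overlap, with a median of -0.83 and 0 called. Their sums were 2893 and 2111 in the total epidermis and 7077 and 3328 on the bulge arrays. Mitf was the higher one (difference 2.67), and Dct had a difference of -1.22. Of the bulge sums Mitf gave 6125 and 2460, so the higher sums rest on that gene and do not describe the other markers. Of 6 fibroblast markers, 3 were lower without overlap, 1 higher and 2 overlapped, with a median of -0.48, 0 called and sums of 701 and 557 against 4335 and 1764. The collagen gene Col1a2 had a difference of 2.96 and gave 3852 and 1541 of the bulge sums. Col1a1 was above background on bulge replicate 1 alone. Col3a1, Pdgfra and Dcn, the lower markers, and Lum were below background in both groups. The part of any of these cells in the differences of the 9 genes was not tested.

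**Figure D4:**
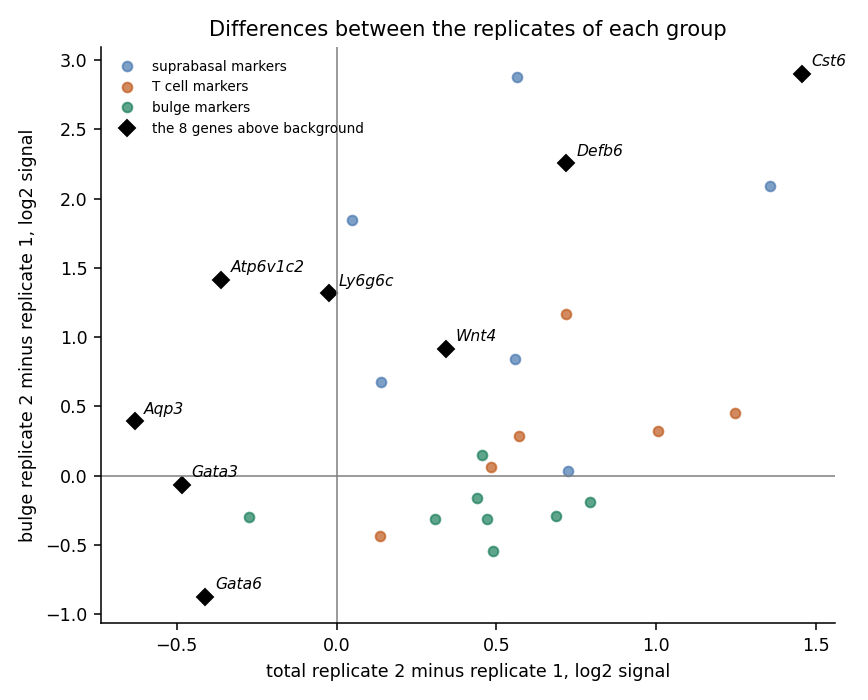
Replicate 2 minus replicate 1 in log2 signal, in the total group (horizontal axis) and the bulge group (vertical axis), for the 8 genes above background (black diamonds) and for suprabasal, T cell and bulge markers above background (coloured circles). Signals are plotted as deposited, also where an array was below background. Cst6 lay at 1.46 and 2.90, and Gata6 at -0.41 and -0.88.

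Of 7 other measured markers of the upper follicle, 4 were lower without overlap, 2 higher and Krt17 overlapped, with a median of -0.67. Krt79, a keratin of infundibulum cells, fell in the fit with the trend (difference -3.46, adjusted p of 0.0426; 0.0950 without trend), from 20471 and 24226 on the total arrays to 1392 and 2951 on the bulge arrays. Plet1, a surface marker of the isthmus, had 2499 and 2019.7 in the total epidermis and 987 and 939 on the bulge arrays, and Lrig1, a receptor regulator of the junctional zone, had 3721 and 2776 against 2342 and 643. Lgr6, a receptor of the isthmus, was lower by a difference of -0.67, with 1 of the 2 bulge arrays below background. Fst, also a gene of the bulge, and Sostdc1, both secreted BMP antagonists, had differences of 2.08 and 0.86.

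The genes whose mean-centred log2 signals over the 4 arrays lay nearest to each member were listed by Euclidean distance among 7248 genes above background in a group. For Gata3 they were Marveld2, which encodes the tight junction protein tricellulin (distance 0.042), and Trip13 (0.12), and for Gata6 they were Dtl (0.18) and Thbs2 (0.23). For Cst6 they were Rasl10a (0.30) and Cd52, a leukocyte surface antigen gene (0.34). For Defb6 they were Arhgdib (0.23) and Il1r2, the decoy receptor of interleukin-1 (0.35). For Aqp3 they were Emid1 (0.13) and 2310030G06Rik (0.21), and for Atp6v1c2 they were Ppil2 (0.14) and the glutathione synthetase gene Gss (0.24). For Ly6g6c they were Nuf2 (0.12) and Sec14l2 (0.15), and for Wnt4 Polr1e (0.13) and Dgcr6 (0.14). Among the members the closest pairs were Ly6g6c with Wnt4 (0.55) and Gata6 with Gata3 (0.68), and the farthest were Defb6 and Aqp3 (5.45). With 4 arrays such closeness describes these samples only.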

How the data were processed

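The authors deposited probe set intensity on a linear scale, with the same trimmed mean on every array and medians of 124 to 145. The submitters' processing notes name GCOS, R, affy and RMA, and which of these made the values is not given in the sources used here. Log2 was taken of the intensity. Of 22690 probe sets, 20380 carried 1 gene symbol (20351 matched by Entrez ID to RefSeq's GRCm38.p6, used for names), 691 several, 1555 none and 64 were controls. The last 3 kinds were left out. Background was the 95th percentile over 67 olfactory, vomeronasal and taste receptor genes.

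Sample titles gave the groups, because all 4 samples carry one cell type label. They were compared with limma 3.58.1 (R 4.3.3), a two-sided test with group as the only term and Benjamini-Hochberg adjustment over 12393 genes. Precision is limited by the number of arrays, 2 per group. Alternatives covered array scaling, the variance model, filters on dim genes, the probe set rule, an offset, a replicate block and each array left out. The text names the 9 genes, the 2 brightest and any called genes of each list, and the 2 genes nearest to each member. Other genes named were chosen after their values were seen. Members and lists were chosen with earlier results of these data known.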

Additional observations from a re-analysis of the deposited data

How the results depend on the processing

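Over 21 alternatives, none of the 9 genes changed direction where it was fitted. For many of them this was fixed in advance, because the variance model, the filters and the replicate block leave the difference as it was. Leaving out 1 array also cannot reverse a gene whose groups do not overlap, which held for all members but Klk10. The number of genes called by limma was 0 in the fit of all genes without trend or offset. It was 134 with the trend, 222 with genes below background in both groups left out (2 members, Gata3 and Gata6, the latter kept by the total group alone), 61 with genes above background on all 4 arrays (0 members, Gata3 at an adjusted p of 0.0714 and Gata6 not tested) and 37 with log2 of signal plus 32. With the trend and another choice together, settings added after seeing the data, it was 119 with median centring, 50 with quantile normalization and 73 with the offset, and no member was called. Leaving out 1 array gave 0 calls without trend and, with the trend, 0 without either total array. With the trend it gave 388 calls without bulge replicate 1, with 3 members (Defb6, Gata3 and Gata6), and 350 without bulge replicate 2, with 4 members (Cst6, Defb6, Gata3 and Ly6g6c), where the lone array is assumed to vary like the intact pair. Differences over the alternatives, which include each array left out, ran from -3.78 to -0.88 for Cst6, -4.64 to -2.39 for Defb6, -2.82 to -1.66 for Gata6, -2.27 to -1.78 for Gata3, 1.37 to 1.998 for Aqp3, 0.29 to 1.71 for Atp6v1c2, -1.96 to -0.65 for Ly6g6c, -1.37 to -0.45 for Wnt4 and -1.88 to -0.31 for Klk10. The bounds for Gata6 and Cst6 were 4.48-fold and 4.86-fold with background at the 90th percentile. Both fits with the trend and without a bulge array covered all 12393 genes. The Gata6 call without bulge replicate 1 rested on a lone bulge signal of 88.3, below background. The Cst6 call without bulge replicate 2 rested on a lone bulge signal of 113, also below background. Neither call therefore supports anything about its gene.

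Same-numbered arrays share only a number in the labels. Their replicate differences correlated between the groups at r = 0.58 across 7249 genes above background, which are not independent replicates. With a replicate block 0 genes were called without trend. With the block and the trend, a combination also added after seeing the data, 917 of 12393 genes were called. Among them were 6 of the 9 members, Aqp3 higher and Cst6, Defb6, Gata3, Gata6 and Ly6g6c lower.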
